A study of Mus musculus with 68 samples.

Results

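The response of mouse embryonic fibroblasts (MEFs) of 1 F1 cross to endoplasmic reticulum (ER) stress was examined. The cross, called x129, had C57BL/6J (B6) mothers and 129S1Sv/ImJ (129) fathers, so every cell carried 1 B6 and 1 129 genome. Of the 68 libraries of the series, all 6 whose labels name this cross were used: 3 of cells given tunicamycin (TM) at 2 ug/ml for 4 h, and 3 of control cells given 0.1% DMSO for the same time. The parental strains supplied the comparison, with 2 control and 2 TM libraries of B6 and 2 control and 3 TM libraries of 129, treated alike. The other 4 F1 crosses, all with a B6 mother and treated alike, supplied 22 libraries. Their fathers were CAST/EiJ (cross xCAST), NOD/ShiLtJ (xNOD), NZO/H1LtJ (xNZO) and WSB/EiJ (xWSB). The MEFs were primary cells pooled from littermates, so each genotype is 1 pool, and triplicate wells of that pool are the replicates. P-values therefore measure the spread between wells and not between litters.

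TM blocks N-linked glycosylation, and unfolded proteins then collect in the ER. The unfolded protein response (UPR) starts from sensors in the ER membrane: IRE1, which splices the mRNA of the factor XBP1; ATF6, which is cut and moves to the nucleus; and PERK, which slows translation and raises the factors ATF4 and CHOP. Together they raise chaperones, enzymes of disulfide bond formation and the machinery of ER-associated degradation (ERAD), and IRE1 and PERK can also switch on NF-kB and with it chemokines.

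The promoters of 6 genes are shown first because they hold letters matching known elements of the response described below. Each runs from 250 bases before to 50 bases after a RefSeq start site, 5′ to 3′ on the gene's strand (RefSeq, GRCm38.p6), and all are the reference sequence, which is that of B6 and not of 129. Capitals mark matches, on either strand, to the ER stress element ERSE (CCAAT and CCACG with 9 bases of any kind between), to ERSE-II (ATTGG and CCACG with 1 base between), to the ATF4 element CARE (TGATGNAA) or to the NF-kB consensus. Hspa5 (chr2:34771840-34772139, + strand) encodes the chaperone BiP, and its ERSE began 65 bases before the start site.
Hspa5: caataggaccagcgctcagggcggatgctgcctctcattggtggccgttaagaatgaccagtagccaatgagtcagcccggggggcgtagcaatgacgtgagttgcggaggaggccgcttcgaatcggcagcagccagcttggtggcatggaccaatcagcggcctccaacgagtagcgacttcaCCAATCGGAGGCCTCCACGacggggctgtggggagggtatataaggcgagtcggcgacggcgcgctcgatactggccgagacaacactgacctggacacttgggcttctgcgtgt
Herpud1 (chr8:94386179-94386478, + strand) encodes an ERAD scaffold, with an ERSE-II 52 bases and a CARE 112 bases before the start.
Herpud1: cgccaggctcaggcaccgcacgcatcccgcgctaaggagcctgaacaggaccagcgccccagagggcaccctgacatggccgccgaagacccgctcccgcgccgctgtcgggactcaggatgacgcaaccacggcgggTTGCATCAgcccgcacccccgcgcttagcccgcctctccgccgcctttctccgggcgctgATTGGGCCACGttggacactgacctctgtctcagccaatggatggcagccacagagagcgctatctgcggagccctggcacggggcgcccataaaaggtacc
Chac1 (chr2:119350992-119351291, + strand) encodes a glutathione-degrading enzyme and is a target of ATF4, with a CARE 193 bases before the start.
Chac1: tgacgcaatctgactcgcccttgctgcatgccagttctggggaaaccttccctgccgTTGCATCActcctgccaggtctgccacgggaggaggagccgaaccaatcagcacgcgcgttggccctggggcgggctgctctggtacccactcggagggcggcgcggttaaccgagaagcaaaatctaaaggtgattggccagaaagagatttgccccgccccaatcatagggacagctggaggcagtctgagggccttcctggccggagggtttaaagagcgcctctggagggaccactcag
Cxcl1 (chr5:90890995-90891294), Cxcl2 (chr5:90903649-90903948) and Ccl20 (chr1:83116516-83116815), all on the + strand, encode chemokines. Their NF-kB matches began 71, 97 and 80 bases before the start, and those of Cxcl1 and Cxcl2 overlapped a match on the other strand.
Cxcl1: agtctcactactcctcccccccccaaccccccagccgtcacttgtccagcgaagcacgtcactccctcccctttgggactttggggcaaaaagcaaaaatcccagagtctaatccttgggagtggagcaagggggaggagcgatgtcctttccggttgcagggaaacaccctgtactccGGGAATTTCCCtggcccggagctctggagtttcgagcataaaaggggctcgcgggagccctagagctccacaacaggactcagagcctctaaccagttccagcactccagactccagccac
Cxcl2: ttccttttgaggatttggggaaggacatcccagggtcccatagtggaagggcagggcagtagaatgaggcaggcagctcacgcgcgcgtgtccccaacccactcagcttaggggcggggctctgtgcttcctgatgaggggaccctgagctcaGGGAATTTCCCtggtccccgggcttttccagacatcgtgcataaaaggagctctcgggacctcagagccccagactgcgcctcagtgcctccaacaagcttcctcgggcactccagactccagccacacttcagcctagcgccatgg
Ccl20: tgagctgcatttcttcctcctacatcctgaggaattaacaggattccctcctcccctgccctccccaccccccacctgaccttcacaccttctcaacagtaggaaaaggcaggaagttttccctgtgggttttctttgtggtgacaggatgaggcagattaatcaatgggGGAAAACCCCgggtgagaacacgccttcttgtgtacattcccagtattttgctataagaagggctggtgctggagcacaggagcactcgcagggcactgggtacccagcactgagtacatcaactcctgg

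Values are RPM (reads scaled to a common library size, here with the authors' TMM factors), with no division by gene length, so levels are compared between libraries and not between genes. The controls held 16834765 to 17931158 reads on genes and the TM libraries 8845683 to 11954134, so depth moved with treatment, and its part in the results was not tested. The first principal component took 62.0% of the variance and separated the treatments, and library profiles were correlated at 0.969 to 0.996. Reads that the authors could not assign to a gene were 18.3% to 18.7% in the controls, 23.0% and 24.2% in TM 1 and TM 2 and 16.7% in TM 3. All 10 fibroblast markers were listed, with a summed value of 27258 to 32708 in controls and 22314 to 28233 with TM. Of 14 myeloid markers 5 were listed, and they summed to at most 7.85. The methods describe the MEFs as made from female littermates, but all 4 Y-linked genes looked at were present (Ddx3y 29.8 to 36.5 in controls and 52.4 to 60.5 with TM) beside Xist at 12.6 to 24.97. The sum of the 4 was 69.4 to 74.3 in controls and 104 to 116 with TM. Genes of fat cells, a list chosen after values were seen, were all highest in control 3 among the controls, by a wide margin for Adipoq (0.138, 0.0977 and 1.61 in controls 1 to 3, and 0 in every TM library) and a narrow one for Pparg (3.72, 3.08 and 3.79). Of the 7 that could be tested, 2 were lowered with TM (Cfd and Gpd1), 1 was induced (Pparg, 1.77-fold, a call lost in 6 of 15 settings) and 4 were not called. The call of Gpd1 was lost in 10 of 14 settings.

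TM raised 603 of 12358 tested genes in x129 (4.88%) and lowered 168 (1.36%). The rule asked of a gene both a limma adjusted p under 0.01 and a 1.5-fold shift or more. Among the largest rises were those of chemokines, of ERAD and chaperone genes and of genes downstream of PERK. Without control 1 the counts were 292 and 38, without control 2 the lowered genes were 86, and without control 3 the counts were 442 and 123. Every TM library lay above every control library for 2689 genes (21.8%) and below for 2323 (18.8%). All folds were fitted to log2(value + 0.1), so those of weakly expressed genes come out too small.

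**Figure D1:**
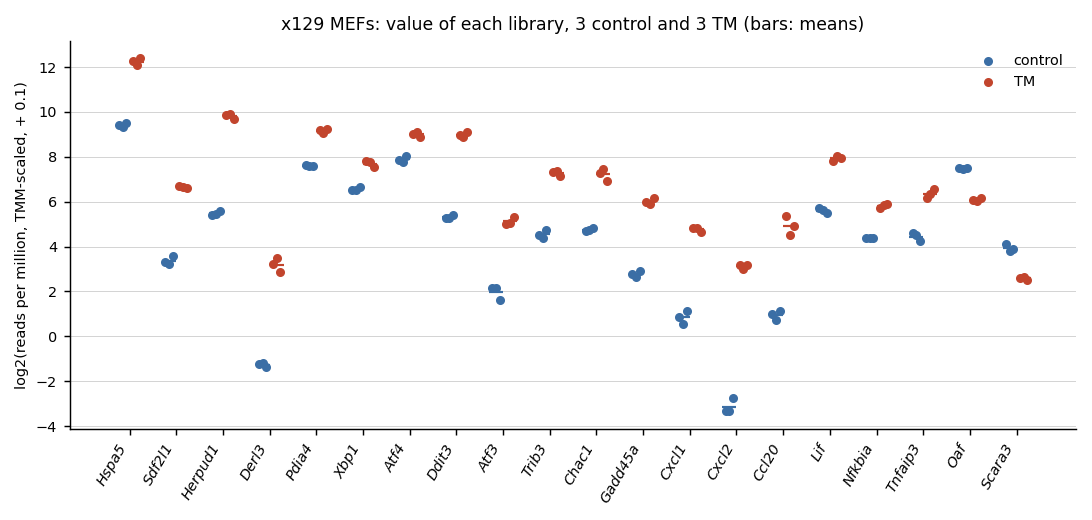
Values of 20 genes in the 6 x129 libraries, as log2 of the scaled RPM plus 0.1. Blue points are the 3 controls, red points the 3 TM libraries and bars the means. In the genes shown no TM point lies within the range of the controls, and Hspa5 goes from 649 to 734 in controls to 4343 to 5366 with TM.

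Of the 16 ER chaperones and co-factors, which fold or inspect proteins in the ER lumen, 11 were induced and none was lowered. Hspa5 was 675, 649 and 734 in the controls and 4932, 4343 and 5366 with TM. The groups were far apart, with a log2 change of 2.83 ± 0.11 (SE, n = 3 and 3, adjusted p 3.17e-07), or 7.1-fold. Sdf2l1, a partner of BiP, rose from between 9.23 and 11.7 to between 97.2 and 103 (log2 3.29 ± 0.11). Dnajb9, a co-chaperone of BiP, rose 7.59-fold and Creld2, a secreted ER protein, 6.09-fold. Hsp90b1 (GRP94), Hyou1, Dnajc3 and Manf rose by 1.80, 1.76, 1.79 and 1.50 on the log2 scale. The lectin chaperones Calr and Canx rose less, by 0.71 and 0.70. Sil1, which exchanges the nucleotide of BiP, was the member that went the other way, at -0.12 with overlapping groups. The median over the list was 1.21, beside 0.00 over all genes tested.

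Of 14 disulfide isomerases and ERO1 oxidases, 7 were induced. Ero1lb, an oxidase that recharges them, was 2.98, 3.22 and 2.13 in controls and 14.3, 13.6 and 12.5 with TM (log2 2.25 ± 0.17). Pdia4, Pdia6 and Pdia3 rose 2.95-, 2.06- and 1.86-fold. The abundant P4hb had a change of 0.29 and was not called. Of 20 ERAD genes, which move misfolded proteins out of the ER for destruction, 8 were induced and 5 without control 1. Herpud1 was 41.9, 43.5 and 48.2 in the controls and 932, 971 and 828 with TM, a 20.4-fold rise with the smallest adjusted p of all genes tested (4.79e-09). Derl3, a channel subunit, went from between 0.284 and 0.342 to between 7.21 and 11.1, a 22.01-fold rise. The ubiquitin ligase Syvn1 and its partner Sel1l rose 4.24- and 3.36-fold. The other 12 members, among them Vcp, the ATPase that pulls substrates out (0.01), were not called, and the list median was 0.25.

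None of the 3 sensors was called, while 6 of the 15 sensors and factors were induced. Ern1, which encodes IRE1, was 40.1, 50.4 and 32.5 in controls and 43.6, 51.9 and 56.0 with TM, and the groups overlapped (log2 0.32 ± 0.15, adjusted p 0.168). Eif2ak3, which encodes PERK, had 0.57 ± 0.10 (adjusted p 0.003), past the p but 1.48-fold and so short of the fold required. Atf6 had 0.44 ± 0.10 (adjusted p 0.0111). Xbp1 was 91.5, 92.4 and 101 in the controls and 225, 218 and 185 with TM (log2 1.13 ± 0.10). Atf4 rose from 232, 219 and 260.3 to 526, 545 and 470 (log2 1.12 ± 0.10); this is the mRNA, while ATF4 protein is known to be set mainly by translation. Ddit3, which encodes CHOP, was 38.4, 38.3 and 42.8 in controls and 502, 470.1 and 552 with TM, a 12.7-fold rise. Atf3 rose 8.81-fold and Cebpg, a partner of ATF4, 2.27-fold. The other members, such as Cebpb (0.20) and Creb3l1 (0.07), were not called, apart from Creb3l2 (induced, log2 0.64).

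Of 16 targets of ATF4 and CHOP, 10 were induced, with a list median of 0.84. Gadd45a, a stress gene of cell cycle arrest, was 6.70, 6.21 and 7.40 in controls and 64.3, 60.2 and 72.5 with TM (9.57-fold). Trib3, an inhibitor of ATF4 and CHOP, went from 22.5, 21.0 and 26.4 to 160.0, 164 and 141 (6.65-fold). Chac1 went from 26.2, 26.3 and 28.02 to 154, 177 and 121 (5.54-fold). Ppp1r15a (GADD34), which restores translation, rose 2.97-fold. Atf5 (-0.17) and the death receptor Tnfrsf10b (-0.08) were not called.

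Amino acid supply genes had smaller changes. Induced were 6 of 13 genes of amino acid and one-carbon synthesis, led by the transaminase Gpt2 (1.97-fold), Cth (1.75-fold), Aldh1l2 (1.74-fold) and Psph (1.73-fold). Induced were also 6 of 12 amino acid transporters, and 3 without control 1, led by Slc3a2 (1.98-fold), Slc6a9 (1.95-fold) and Slc1a4 (1.93-fold), while Slc1a5 stood at -0.32 and was not called. Of 20 cytosolic tRNA synthetases 4 were induced (Cars, Wars, Tars and Eprs) and 8 without TM 2, with a median of 0.46; the call of Eprs was lost in 5 of 15 alternative settings. Of the 17 mitochondrial ones none was, with a median of 0.13. Lars2, in the latter, had the widest spread: 421, 278 and 410 in controls, and 1840, 394 and 481 with TM, so that TM 1 alone stood out.

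Of 20 listed chemokines and cytokines, 11 were induced, with a median of 1.52. Cxcl2, which draws neutrophils, was at 0, 0 and 0.0474 in the controls and at 9.001, 7.92 and 8.98 with TM. Those control values rest on 1 read in all, against 344 with TM, so the ratio of 550.3 has a counting interval (95%, exact) of 98.1 to 21797, and the fitted log2 change of 6.26 depends on the pseudocount. Cxcl1 was 1.70, 1.37 and 2.09 in the controls and 28.7, 27.9 and 25.4 with TM (15.3-fold). Ccl20, which draws lymphocytes and dendritic cells, went from 1.88, 1.56 and 2.09 to 40.5, 22.8 and 30.5 (15.8-fold). Lif, a cytokine of the IL-6 family, went from 52.2, 48.9 and 44.9 to 228.5, 266 and 243 (5.05-fold). Ccl2 and Cxcl5 rose by 2.00 and 2.03 on the log2 scale. Il6 itself was low (1.03 to 1.93, and 1.84 to 4.13 with TM) and was not called (adjusted p 0.051). Cx3cl1 and Il11 stood at -0.46 and -0.38, and neither was called.

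Of 15 NF-kB subunits and regulators, 9 were induced, and 5 without control 1. The feedback inhibitors led: Tnfaip3 (A20) was 24.2, 22.7 and 18.8 in controls and 70.8, 81.7 and 94.3 with TM (3.74-fold), and Nfkbia was 20.6, 20.9 and 20.7 against 52.5, 57.8 and 59.2 (2.72-fold). The subunit Rel rose 2.64-fold and Relb by 1.22 on the log2 scale, while Rela had 0.12, and the call of Rel was lost in 4 of 15 settings. Of 10 tested acute-phase and adhesion genes 3 were induced, Ptx3 (4.03-fold), Ptgs2 (1.6-fold) and Vcam1 (1.55-fold), and 1 without control 1; the call of Ptgs2 was lost in 5 of 15 settings. Of 18 immediate early genes 7 were induced, among them Egr1 (2.6-fold) and Myc (2.31-fold), and 4 without control 1, while Fos (0.25) and Jun (0.27) were not. Growth factors and receptors had 5 of 17, with Fgf21 from between 0.0918 and 0.19 to between 1.32 and 1.57, Pdgfb at 2.99-fold, Gdnf at 2.34-fold and Ereg at 2.11-fold. In bulk RNA a change in the number of cells of a type and in RNA per cell cannot be told apart, and the myeloid markers listed were at or below 2.28 in every x129 library.

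**Figure D2:**
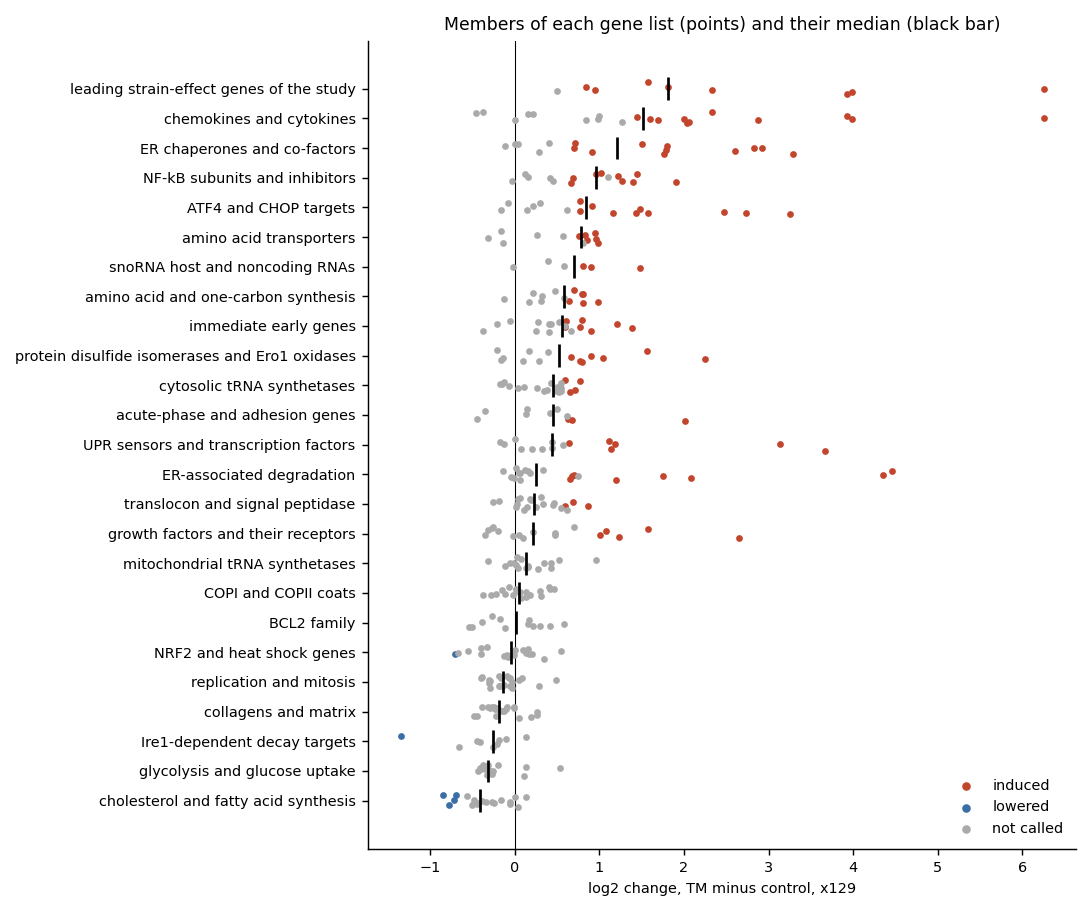
Log2 change with TM in x129 of the members of each gene list, 1 point a gene, with the list median as a black bar. Red points were induced, blue points lowered and grey points not called. The lists are ordered by median, from 1.81 for the genes the study singled out for strain differences among its induced genes to -0.42 for cholesterol and fatty acid synthesis.

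Several lists held no call. Of all tested genes 4.88% were induced and 1.36% lowered, so most lists of this size would hold few calls or none. No member was called among 12 BCL2 family genes (median 0.02), 20 coat proteins of ER transport vesicles (0.05), 21 collagens and matrix genes (-0.19), 23 replication and mitosis genes (-0.14) or 15 glycolysis genes (-0.31). The translocon had 3 of 20 induced (Spcs3, Spcs2 and Ssr3), and 1 without control 1, and the call of Ssr3 was lost in 8 of 15 settings. Of 18 NRF2 and heat shock genes only Hspa1b was called, lowered 1.64-fold, and that call was lost in 7 of 15 alternative settings. Of 6 listed noncoding RNAs 3 were induced, led by Snhg12 (2.78-fold, with TM values of 97.1, 60.7 and 71.6). The call of 2410006H16Rik, another of the 3, was lost in 10 of 15 settings.

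In cholesterol and fatty acid synthesis 4 of 20 genes were lowered (1 without control 1), and the median was -0.42. Among them, Dhcr7, an enzyme of the last steps of the pathway, was 13.4, 13.1 and 12.4 in controls and 6.94, 8.72 and 6.06 with TM, a 1.8-fold fall with no overlap, though its call was lost in 3 of 15 settings. Mvk, the mevalonate kinase, was 40.7, 40.02 and 44.9 against 24.6, 26.2 and 26.5, a 1.62-fold fall. Of 9 known targets of decay by IRE1, 1 was lowered and 8 were not called, with a median of -0.25. The lowered gene, Scara3, fell from 17.02, 13.9 and 14.9 to 5.90, 6.16 and 5.65 (2.55-fold). Bloc1s1, the best known of them, was at -0.66 with an adjusted p of 0.0118 and was not called.

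The steepest falls outside the lists were those of genes with varied roles. Oaf, of unclear function, went from 182, 175 and 183 to 67.3, 65.3 and 70.9, a 2.66-fold fall with the groups far apart. Cdc42ep2, an effector of the GTPase CDC42, fell 2.93-fold, Car9, a carbonic anhydrase of the cell surface, 2.71-fold, and Npas4, an activity-dependent factor, 2.52-fold. Plekhg4, Cep295nl, Ier5l, C1qtnf6 and Cemip2 fell between 2.33- and 2.58-fold. The call of Cep295nl was lost in 6 of 15 settings and that of Car9 in 3 of 14. Cfd, a protease of fat cells, was 0.596, 0.586 and 4.27 in the controls and 0 in all TM libraries, at least 24.0-fold lower over the group at a floor of 3 reads. Control 3 held 90 of the 115 control reads, and without it the limit was 7.81-fold. Its call was lost in 9 of 14 settings, without control 3 among them, and control 3 was also the library with the highest Adipoq. The part of fat cells in this fall was not tested.

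Of the rises outside the lists, Cass4, an adhesion scaffold, went from 0.688, 1.12 and 0.996 to 9.74, 11.3 and 12.2 (10.9-fold). Piga, which starts the synthesis of GPI anchors in the ER membrane, rose 6.48-fold, and the repressor Hey2 6.42-fold.

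Promoters were searched for these elements; a match is a description of the letters and not a site or a cause. Promoters were found for 9636 of the tested genes. ERSE was in 16 of them (0.166%), and 11 of those were among the 469 induced genes with a promoter (2.35%). Of 13 chaperone genes with a promoter 6 held it (46.2%), and of 16 ERAD genes 2 (12.5%). CARE was in 2.72% of all, in 6.82% of induced genes and in 4 of 12 targets of ATF4 and CHOP (33.3%). The NF-kB consensus was in 6.41% of all and 8.53% of induced genes, but in 8 of 14 chemokine and cytokine genes (57.1%) and 7 of 12 NF-kB genes (58.3%). Another UPR letter run, TGACGTGG, was in 1.06% of all and 1.28% of induced genes. Among the lowered genes none of 128 held ERSE.

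**Figure D3:**
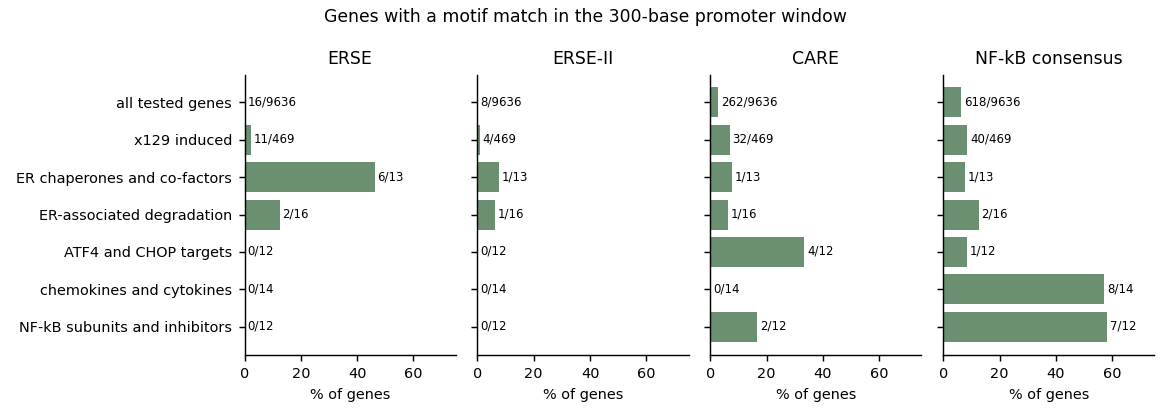
Share of genes whose 300-base promoter window holds each motif on either strand, for all tested genes, for the genes induced in x129 and for 5 gene lists. Numbers beside the bars are genes with a match of genes with a promoter. ERSE stands out in the chaperone list (6 of 13) and the NF-kB consensus in the chemokine (8 of 14) and NF-kB lists (7 of 12).

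The next question was whether the F1 responded like either parent. Of 601 genes induced in x129 and tested in all 3 genotypes, 601 were above control in B6 and 596 in 129. A change of 1.5 fold was passed by 76.2% in B6 and by 77.0% in 129, against 7.19% and 9.27% of all 12162 genes tested. By the full rule B6 shared 449 of them (74.7% of the x129 list and 71.4% of the B6 list) and 129 shared 40 (6.66% of the x129 list, and all 40 induced in 129). The shares of all tested genes induced in the parents were 5.04% in B6 and 0.315% in 129. The median residual SD between libraries was 0.237 in 129, 0.157 in x129 and 0.105 in B6, and its part in the low count of 129 was not tested. Libraries that did not cluster by treatment had been removed by the study, so these spreads are those of the libraries kept. The median change of the 601 genes was 0.83 in x129, 0.76 in B6 and 0.81 in 129. Over all 12162 genes the changes in x129 were correlated at 0.803 with those in B6 and at 0.723 with those in 129, a description across genes, which are not independent. Of 166 lowered genes all lay below control in both parents, and 69.3% in B6 and 77.7% in 129 were lowered past 1.5 fold, against 5.99% and 10.6% of all genes tested. By the full rule 110 were also lowered in B6 and 1 in 129.

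**Figure D4:**
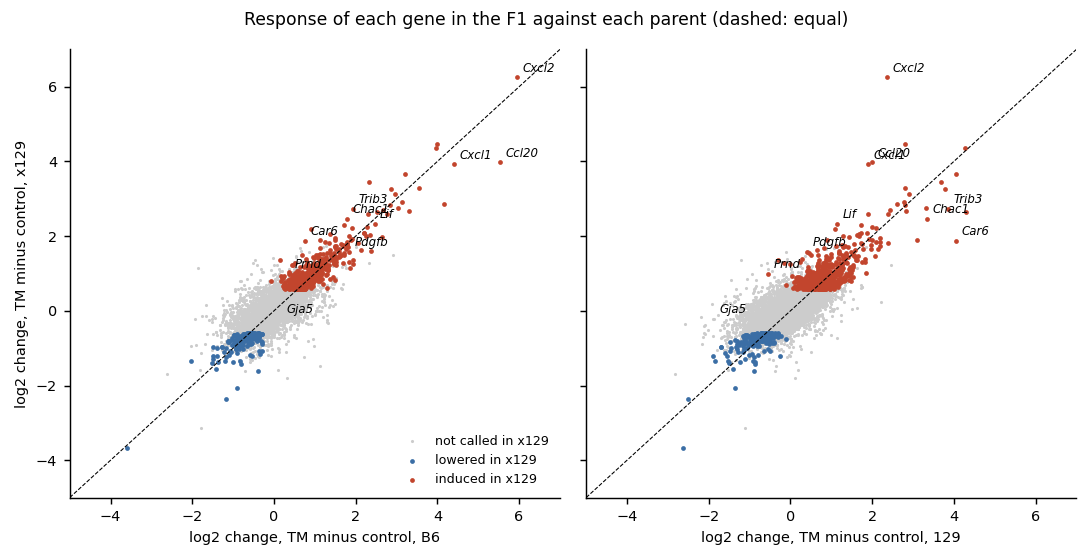
Log2 change with TM of each gene in x129 (vertical) against B6 (left) and 129 (right). Red genes were induced and blue genes lowered in x129, and the dashed line marks equal change. The named genes had a response that differed between B6 and 129 or between x129 and 129, and Cxcl2, Cxcl1 and Ccl20 lie above the line on the right, at 6.26 against 2.37, 3.93 against 1.89 and 3.98 against 2.00.

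The responses of ER genes were close in some and further apart in others. Hspa5 changed by 2.83 in x129, 2.85 in B6 and 2.80 in 129. For Herpud1 the values were 4.35, 3.96 and 4.28, and for Xbp1 1.13, 1.24 and 1.11. Derl3 had 4.46, 4.00 and 2.81, Sdf2l1 3.29, 3.55 and 2.81, Pdia4 1.56, 1.71 and 1.19, Sel1l 1.75, 1.69 and 1.12, and Ddit3 3.67, 3.21 and 4.04, and none of these differences passed the adjusted test (smallest adjusted p 0.443, limma). Without 129 TM 3, Sel1l passed it between x129 and 129. The chaperone list had medians of 1.21, 1.33 and 1.04. The NF-kB list had 0.96, 0.79 and 0.40, and chemokines and cytokines 1.52, 1.39 and 1.195. Responses were tested against each other in 1 limma fit over the 15 libraries. No gene of 12551 differed between x129 and B6 (0%) at an adjusted p below 0.05, and none by edgeR. At an unadjusted p below 0.05 there were 178 (1.42%), less than the share of 0.05 passed when nothing differs. The fit shared 1 spread over x129, B6 and 129. With weights by genotype the 178 became 500, and still no gene passed. That does not show that the F1 and B6 responded alike: over the 603 induced genes the 95% interval of this difference reached a median of 0.45 on either side. Between x129 and 129 the response differed for 6 genes (0.0478%), and between B6 and 129 for 9 (0.0717%), with 5 in both. No gene passed the adjusted test of departure from the mean of the parents (262, or 2.09%, at an unadjusted p below 0.05, none by edgeR). Without 129 TM 3 the 262 became 1718, and still no gene passed, which does not show that none departed.

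The log2 change was higher in x129 than in 129 for Cxcl2 (by 3.89 ± 0.41), Cxcl1 (2.04 ± 0.22), Ccl20 (1.99 ± 0.29), Prnd (1.54 ± 0.23) and Lif (1.19 ± 0.18), and lower for Car6 (-2.18 ± 0.33). Prnd went in opposite directions, at 0.99 in x129 and -0.55 in 129, with B6 at 0.38. Adjusted p ran from 0.0017 to 0.0305. Pdgfb, which encodes a chain of platelet-derived growth factor, fell just outside (1.18 ± 0.20, adjusted p 0.0545). Cxcl1 and Cxcl2 remained in each of the fits that left out 1 library, the other 4 did not, and the count ran from 2 to 17 genes, the latter without 129 TM 3. B6 exceeded 129 (5 to 10 genes in all when 1 library was left out) in Cxcl2, Ccl20, Cxcl1, Gja5, Pdgfb and Lif, by 3.58, 3.55, 2.51, 2.05, 1.43 and 1.32. B6 responded less than 129 in Car6 (-3.29), Trib3 (-1.91) and Chac1 (-1.56). With a pseudocount of 1, Car6, Ccl20 and Gja5 lost this call (6 genes in place of 9), and Car6 and Ccl20 also lost that of x129 against 129 (4 in place of 6). Car6 had 1 read in the 129 controls together. Gja5 had 5 and 3 reads in the 129 controls and 0 in the TM libraries, where 3 reads are worth 0.313, 0.377 and 0.156, so every 129 library was under the filter on low values, the gene was tested through the other genotypes, and the size of its difference of 2.05 depends on the pseudocount. The study had itself put Cxcl1, Cxcl2, Ccl20, Lif and Pdgfb among its leading strain-effect genes on these founder libraries, so their place here is not independent evidence. Of the 9 such genes listed for x129, 8 were induced, also Apobec1 (3.5-fold), Plk2 (1.93-fold) and Gpat3 (1.8-fold), and Mmp9 was not (log2 0.49, adjusted p 0.0753). The study drew such genes from those induced in at least 1 founder strain, so that choice favoured a high count here.

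The levels behind these responses differed before treatment, and so did the summed levels of marker genes. In controls the Y-linked genes summed to 69.4 to 74.3 in x129, 78.7 to 92.3 in B6 and 24.6 to 29.2 in 129, and Xist was 12.6 to 24.97, 70.7 to 85.1 and 110.3 to 162. Myeloid markers summed to 6.74 to 7.85, 38.4 to 39.8 and 17.3 to 18.8, and endothelial ones to 2.37 to 2.78, 4.56 to 5.57 and 11.3 to 12.7. The part of these markers in the differences between genotypes was not tested. Founder and F1 tables were scaled apart, and all values on genes summed to 798551 to 822666 in x129 controls. In B6 controls that sum was 977532 to 990711, and in 129 controls 978239 to 986441. Levels of x129 thus come out low beside those of the parents. A small gap, such as that of the Y-linked sums between x129 and B6, cannot be told from this scaling. Cxcl1 stood at 0.644 and 0.506 in B6 controls and at 12.8 and 13.5 in 129 controls, and with TM at 13.4 and 14.8 in B6 and at 49.4, 44.6 and 53.2 in 129. The smaller fold of 129 thus went with the higher level, both before and after TM, and no B6 library overlapped the 129 libraries of the same treatment. The mean increment was 13.5 in B6, 25.6 in x129 and 35.9 in 129, so for Cxcl1 the order by increment was the reverse of that by fold. For Lif the increments in the same order were 259, 197 and 147, which is also the order of its folds. For Cxcl2 they were 16.4, 8.62 and 2.50, with 129 lowest by fold and by increment. For Ccl20 they were 13.4, 29.4 and 19.2, so B6 was highest by fold and lowest by increment. The F1 tables were scaled apart from the founder tables, so its levels of 1.37 to 2.09 and 25.4 to 28.7 are set beside these without a test. Ccl20 was 0.184 and 0.203 in B6 controls, 1.56 to 2.09 in x129 and 7.004 and 5.65 in 129. With TM it was 14.8 and 12.4, 22.8 to 40.5, and 28.2, 22.3 and 26.1.

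Lif and Pdgfb differed in the controls and met with TM. Lif was 59.4 and 54.5 in B6 controls, 44.9 to 52.2 in x129 and 120.2 and 117 in 129. With TM it was 341 and 291, 228.5 to 266, and 213, 294 and 290.4, so that the B6 and 129 ranges overlapped. Pdgfb was 8.70 and 7.50, 6.47 to 8.16, and 22.4 and 23.4 in controls, and 30.8 and 27.3, 21.2 to 23.7, and 27.3, 36.1 and 28.4 with TM. In both genes the x129 controls lay near those of B6.

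**Figure D5:**
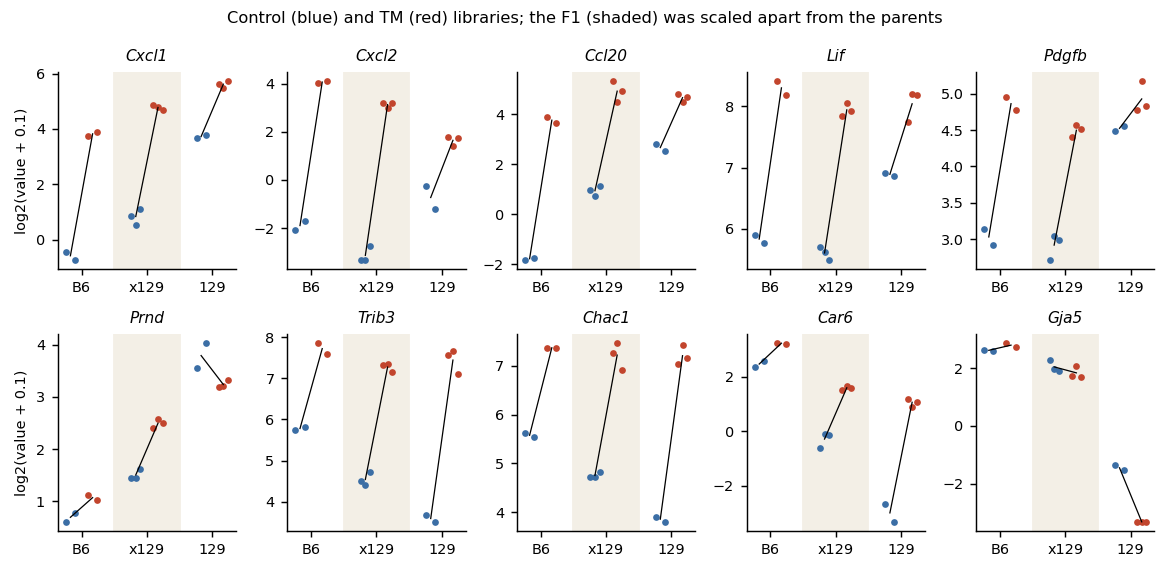
The 10 genes whose response differed between B6 and 129 or between x129 and 129, as log2(value + 0.1) in every library, each panel with its own vertical range. Blue points are controls, red points TM libraries, and lines join their means. The x129 columns are shaded because the F1 tables were scaled apart. In Lif, Pdgfb, Trib3 and Chac1 the TM points of B6 and 129 lie close together while their controls differ.

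Trib3 and Chac1, the targets of ATF4, had the opposite order. Trib3 was 53.1 and 56.6 in B6 controls, 21.0 to 26.4 in x129 and 12.6 and 11.3 in 129, and with TM 233 and 191, 141 to 164, and 190.4, 201 and 138. Chac1 was 48.9 and 46.4, 26.2 to 28.02, and 14.9 and 13.8 in controls, and 166 and 165, 121 to 177, and 131, 172 and 143 with TM. The responses were 1.94 in B6, 2.73 in x129 and 3.85 in 129 for Trib3, and 1.79, 2.47 and 3.35 for Chac1. In these genes the F1 lay 58.7% and 56.7% of the way from 129 to B6, without passing the test against either parent (adjusted p against 129 of 0.146 and 0.382).

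Cxcl2 was lowest in 129 with TM. It was 16.03 and 17.2 in B6 with TM, 7.92 to 9.001 in x129 and 3.34, 2.52 and 3.27 in 129, from controls of at most 0.203, 0.0474 and 0.746. Its response in x129 (6.26) lay above that of B6 (5.96) by 0.30, with an 95% interval of -0.62 to 1.22. With a pseudocount of 1 the difference was -0.67. Car6, a secreted carbonic anhydrase known to rise with CHOP, was 5.06 and 5.77 in B6 controls, 0.551 to 0.831 in x129, and 0.0574 and 0 in 129. With TM it was 9.34 and 9.16, 2.73 to 3.08, and 2.19, 1.76 and 2.02. Gja5, which encodes connexin 40, was near 0 in 129 (0.287, 0.246 and then 0 in all 3 TM libraries) and at 3.13 to 4.77 in x129 without a call. Prnd, which encodes the prion-like protein doppel, was 2.62 to 2.99 in x129 controls and 5.16 to 5.90 with TM. In 129 it was 11.6 and 16.3 in controls and 8.97 to 9.86 with TM, and in B6 1.43 and 1.62, then 2.07 and 1.94.

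Against the mean of the other 4 crosses no gene of 12757 differed (0%) at an adjusted p below 0.05, and none by edgeR. At an unadjusted p below 0.05 there were 637 (4.99%), about the share passed when nothing differs. That count depended on the fit. It was 1725 with weights by genotype and ran from 223 to 1753 with 1 library left out, and still no gene passed. This does not show that the crosses responded alike. The log2 response of Cxcl2 was 6.26 in x129, 7.18 in xCAST, 5.01 in xNOD, 4.31 in xNZO and 2.14 in xWSB. That of Cxcl1 was 3.93, 5.90, 3.72, 2.90 and 1.58 in the same order, and that of Ccl20 3.98, 6.67, 4.55, 4.27 and 1.10. For Trib3 the crosses ran from 2.29 in xCAST to 3.11 in xNZO, with x129 at 2.73. These crosses are named by their father strain and share the B6 mother.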

How the data were processed

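RNA was sequenced from MEFs given TM or DMSO. The authors aligned reads to genomes built for each strain (TopHat 1.4.1; FastQC, Trimmomatic and edgeR are also named in the submitters' processing notes) and deposited a signal per gene that they call FPKM. In these deposited signal columns every value was a whole multiple of what 1 read is worth in its library (tolerance 0.05 reads), so the values are RPM scaled by TMM, not divided by length, and whole reads could be recovered. Founder and F1 tables were scaled apart. The 3 rows naming no gene (16.7% to 24.2% of reads in x129) were dropped. Of 12803 genes listed for x129, 12639 had a symbol.

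Genes at 0.5 or more in at least 2 libraries of a genotype were tested with limma 3.58.1 (lmFit, eBayes with a trend; R 4.3.3) on log2(value + 0.1), with Benjamini-Hochberg adjustment. x129 was fitted on its own libraries, and responses were compared in 1 fit over x129, B6 and 129 (adjusted p below 0.05). edgeR 4.0.16 on recovered reads, other pseudocounts, filters, scaling, weights and left-out libraries were alternatives. Fits were run on simulated data with the same dispersion in every library, which cannot test the spread shared over genotypes. Intervals of read ratios and limits for 0 cover counting error only; those of response differences are limma's and cover the spread between wells. Promoters came from RefSeq, GRCm38.p6.

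The members and gene lists were chosen with earlier results of these data known. Named genes were the 15 largest rises and 10 largest falls with groups that did not overlap and a mean of at least 2, the 5 smallest adjusted p of each contrast that passed, the 5 largest differences between B6 and 129, and, per list, up to 4 called members, the sensors and factors, the strain-effect genes and members going against their list. Other members given with a value, the fat cell genes, Bloc1s1 and Lars2 among them, were chosen after values were seen. Some genes of these lists are not reported here by name.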

Additional observations from a re-analysis of the deposited data

Results flagged for a closer look

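The response to TM differed between genotypes, by the test of the difference itself (limma, adjusted p below 0.05), for 15 pairs of a gene and a comparison. Between x129 and 129 the log2 differences were 3.89 for Cxcl2, 2.04 for Cxcl1, 1.99 for Ccl20, 1.54 for Prnd, 1.19 for Lif and -2.18 for Car6. Between B6 and 129 they were 3.58 for Cxcl2, 3.55 for Ccl20, 2.51 for Cxcl1, 2.05 for Gja5, 1.43 for Pdgfb, 1.32 for Lif, -1.56 for Chac1, -1.91 for Trib3 and -3.29 for Car6. Gja5 had 5 and 3 reads in the 129 controls and 0 in the 129 TM libraries, and Car6 had 1 read in the 129 controls together, so the sizes of their differences depend on the pseudocount. The B6 and 129 values of Pdgfb lay at a log2 ratio of -1.49 in controls and -0.07 with TM, those of Trib3 at 2.19 and 0.28, and those of Chac1 at 1.72 and 0.16. For Cxcl2 the ratio went from -1.16 to 2.42.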

How the results depend on the processing

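The 603 induced and 168 lowered genes of x129 became 399 and 97 with no trend, and lowered genes 98 in 1 fit over the 28 F1 libraries, 305 with array weights and 308 at an adjusted p of 0.05. Leaving out 1 library gave 292 to 563 induced and 38 to 195 lowered. The replicate block gave 472 and 106, 2 genes for x129 against 129 and 3 for B6 against 129. Replicate numbers were not seen to pair the samples: same-numbered deviations correlated at -0.16, 0.22 and -0.30. Those with unlike numbers ran from -0.46 (control 2 with TM 1) to 0.51 (control 3 with TM 1). With 3 libraries a group these values cannot settle whether wells were paired. For x129 against 129 the 6 genes became 2 with weights by genotype, 2 at an adjusted p of 0.01, 4 with pseudocount 1 (6 of 9 for B6 against 129) and 2 to 17 with 1 library left out. The spread of the 2 compared genotypes alone, chosen after seeing the data, gave 2, and 3 for B6 against 129, whose 9 genes became 5 to 10 with 1 library left out. For x129 against B6 the 0 became 1, Lcn2, without x129 control 2. The cause of these changes was not tested. Differences changed sign with pseudocount 1 for x129 minus B6 of Cxcl2 (-0.67) and Cxcl1 (0.13), and for x129 minus the parental mean of Car6 (0.074) and Gja5 (-0.077). For Chac1 that difference was -0.23 to 0.044 with 1 library left out, the latter without x129 TM 3. Of 92 named genes, 27 lost a call in some setting run and 65 lost none. The 65 include genes with no call to lose, Ern1, Atf6, Eif2ak3, Mmp9 and Gja5 among them. Of 368 list counts, 32 moved by over 1.5 times.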
